A study of Mus musculus with 20 samples.

Results

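The genes described here are 32 genes of blood vessels, chosen by symbol from general knowledge of the cell types of brain vessels, with earlier results of these data known. All were found among the 22048 genes counted in laser-captured arcuate nuclei (ARC) of male C57BL6/J mice. They comprise endothelial junction proteins, receptors, transporters and surface proteins, genes listed here under pericytes and vascular smooth muscle, the basement membrane collagens Col4a1 and Col4a2, and the growth factor Vegfa. Mice, given as 10 weeks old, drank corticosterone (Cort, 75 µg/ml in 1% ethanol) or vehicle (1% ethanol) for 2 days or for 4 weeks, with 5 samples in each of the 4 groups. The 4 week mice had in addition been fasted for 16 h and refed for 24 h on their treatment before they were culled. The study left out 2 vehicle libraries and 1 Cort library from each set as outliers of a principal component analysis, so the main comparisons rest on 3 vehicle and 4 Cort libraries. All 10 libraries of each set are given below by barcode, and the outliers are vehicle C07, vehicle C09 and Cort C08 in the 2 day set, with vehicle C01, vehicle C05 and Cort C06 in the 4 week set.

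Endothelial cells line the capillaries of the brain and seal them with tight junctions, which form the blood-brain barrier. Pericytes sit on capillaries and smooth muscle cells on arterioles, and both share a basement membrane of type IV collagen with the endothelium. The growth factor encoded by Vegfa is made by neighbouring cells and binds receptors on endothelium encoded by Flt1 and Kdr. The ARC lies beside the median eminence, whose capillaries are fenestrated and lack this barrier. Glucocorticoids are known to act on brain endothelium and its junctions.

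No member passed a Benjamini-Hochberg adjusted P (Padj) of 0.1 in edgeR's quasi-likelihood test of Cort against vehicle at either time. At 2 days, 0 of the 27 members tested passed, against 0.065% of all 12309 genes tested, and 1 (Plvap) had an unadjusted P below 0.05, against 5.97% of all genes. At 4 weeks, 0 of the 23 members tested passed, against 0.0446% of all 11211 genes, and 3 (Pecam1, Kdr and Col4a1) had an unadjusted P below 0.05, against 4.91% of all genes. With all 10 libraries of a set, 0 of 27 members passed at 2 days (0.0167% of all genes) and 0 of 18 at 4 weeks (0.00962% of all genes). In that fit 1 member (Tek) had an unadjusted P below 0.05 at 2 days, against 5.28% of all genes, and 2 (Kdr and Pecam1) did at 4 weeks, against 4.9% of all genes. The median log2 fold change (Cort over vehicle) was -0.04 over the members at 2 days, with 11 above and 16 below 0, and 0.26 at 4 weeks, with 14 above and 9 below 0. Over all genes tested it was 0.02 and 0.04. The filter on low counts required a gene to reach 2.19 CPM at 2 days or 3.58 CPM at 4 weeks in at least 3 kept libraries. Plvap reached it in 3 Cort and 0 vehicle libraries, so that it could be tested only because it was high in Cort. Pecam1 and Kdr reached it in 3 Cort libraries and 1 vehicle library and Col4a1 in 3 vehicle libraries and 1 Cort library, so these 3 also passed mainly through the group where they were higher, and the 4 P values are not independent of the filter. As these are bulk samples, fewer vascular cells and less RNA per vascular cell cannot be told apart.

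**Figure D1:**
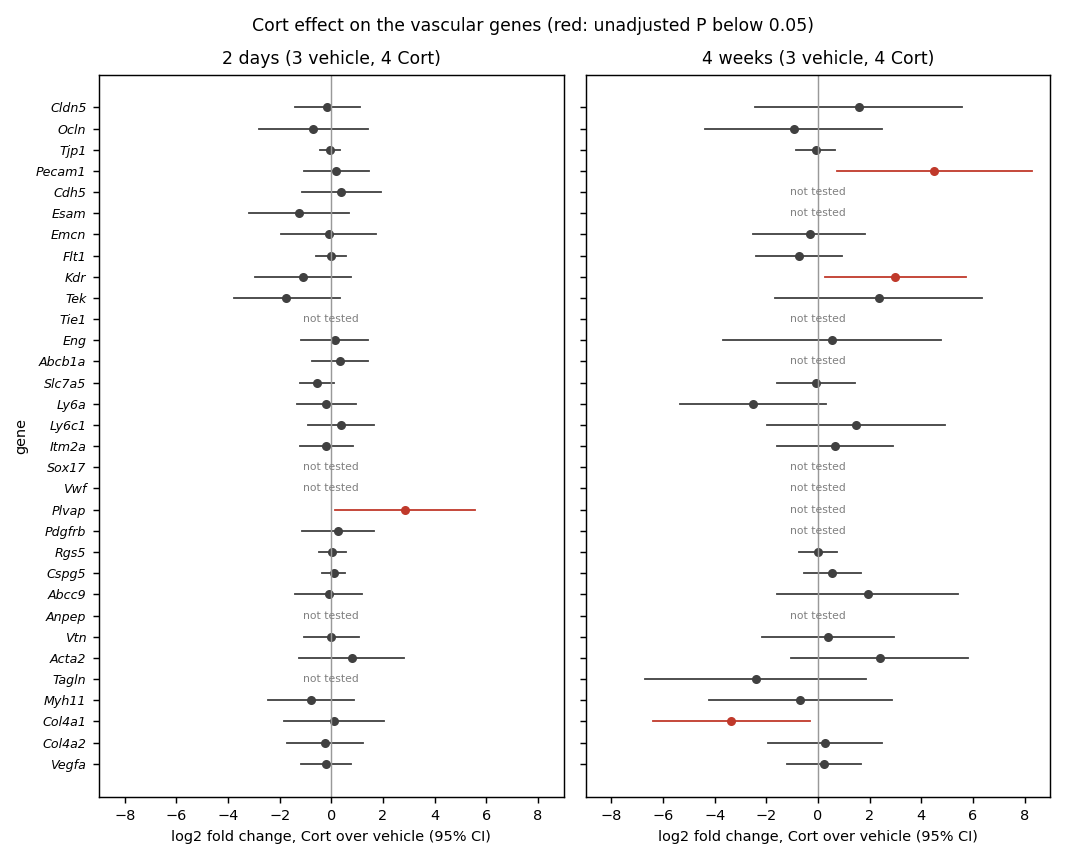
Log2 fold change of each vascular gene (Cort over vehicle, x axis) with its 95% confidence interval in the 7 kept libraries at 2 days (left) and 4 weeks (right), with red marking an unadjusted P below 0.05 and genes removed by the filter on low counts shown as not tested. The intervals at 4 weeks are wider than at 2 days, and the intervals that leave out 0 belong to Plvap at 2 days and to Pecam1, Kdr and Col4a1 at 4 weeks.

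The summed level of known glucocorticoid targets was higher in the kept Cort libraries of both sets. That of 9 such genes (Fkbp5, Tsc22d3, Sgk1, Fam107a, Per1, Zbtb16, Cdkn1a, Mt2 and Pdk4) was 698 to 823 CPM (counts scaled to the size of the library) in the kept vehicle libraries at 2 days and 1123 to 1731 CPM in the kept Cort libraries. At 4 weeks it was 407 to 703 CPM and 1081 to 1319 CPM. Over all 10 libraries the groups overlapped at 2 days, where vehicle library C07 reached 1293 CPM, and stayed apart at 4 weeks. The summed level of the 32 vascular genes was 688 to 751 CPM in kept vehicle and 581 to 818 CPM in kept Cort libraries at 2 days, and 685 to 1281 CPM and 855 to 1371 CPM at 4 weeks, so that vehicle and Cort overlapped at both times. Of the 9 glucocorticoid targets, 4 had an unadjusted P below 0.05 at 2 days and 2 at 4 weeks, all of them higher with Cort, and 1 (Fam107a) passed the adjusted threshold at each time. The study had already reported Fkbp5, Fam107a and Mt2 at 2 days, and Fam107a at 4 weeks, as raised by Cort in these same data. The sums and counts of this list are therefore not independent of these data.

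**Figure D2:**
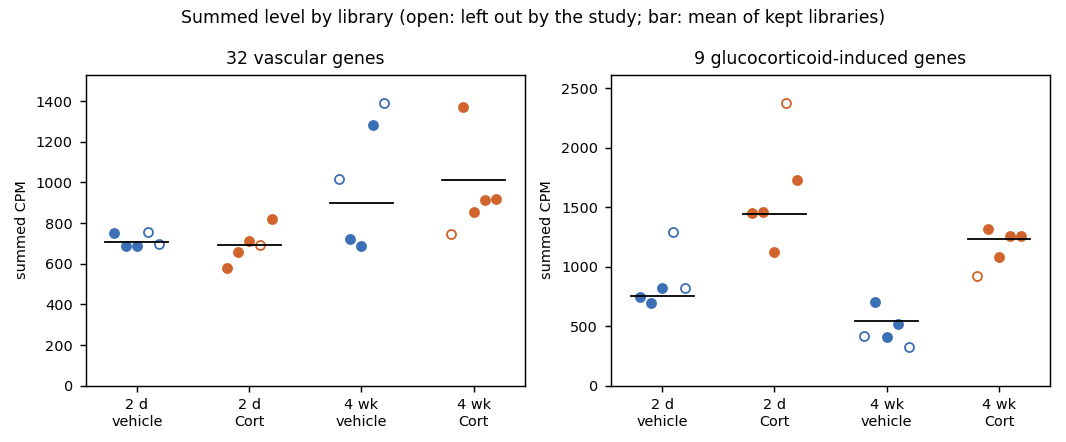
Summed CPM (y axis) of the 32 vascular genes (left) and of 9 glucocorticoid-induced genes (right) in each library, with filled points for kept libraries, open points for those left out by the study and bars for the mean of the kept libraries. The vascular sums of vehicle and Cort overlap in both sets, while the kept Cort libraries lie above the kept vehicle libraries for the glucocorticoid-induced genes.

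Transcripts of ARC neurons were present in every library, with Agrp at 117 to 879.2 CPM and Pomc at 225.9 to 537.1 CPM at 2 days and at 18.86 to 302.4 CPM and 21.16 to 240.4 CPM at 4 weeks. Total counts were 2487063 to 5748223 per library at 2 days and 1065776 to 5196364 at 4 weeks, and a count of 3, taken as the floor, was worth 0.493 to 1.15 CPM and 0.648 to 2.89 CPM. At 2 days between 2 and 5 of the 32 members lay at or below 3 counts in a library. At 4 weeks this was 7 to 18 members, and 4 to 16 were at 0. Because the RNA was amplified, a count is not an independent molecule, and such floors cover counting error only. The confidence interval of the log2 fold change lay within 1 of 0 for 4 of 27 members at 2 days (Tjp1, Flt1, Rgs5 and Cspg5), against 44.7% of all genes tested. At 4 weeks it did so for 2 of 23 (Tjp1 and Rgs5), a share near the 9.73% of all genes tested. For the other members the interval reached beyond a 2-fold change in at least 1 direction. The members removed by the filter on low counts were Tie1, Sox17, Vwf, Anpep and Tagln at 2 days, and at 4 weeks the first 4 of these with Cdh5, Esam, Abcb1a, Plvap and Pdgfrb.

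Levels between genes were compared as CPM per kb of exon (median of the 10 libraries). Rgs5, a regulator of G protein signalling found in pericytes and also in other cells, was highest in both sets (37.8 at 2 days and 67.9 at 4 weeks). The scaffold gene Tjp1 followed at 2 days (15.3) with Slc7a5, a large neutral amino acid transporter (11.3), and at 4 weeks Slc7a5 (22.2) stood before Tjp1 (18.2). The endothelial markers Cldn5, the main barrier claudin (5.65 and 0.961), Pecam1 (1.39 and 0.421) and Cdh5, the cadherin of endothelial junctions (1.36 and 0.274), were far lower, and Tie1, Tagln, Anpep and Vwf were at the bottom at 2 days (0.0123 to 0.25). Rgs5, Tjp1, Cspg5, Slc7a5 and Flt1 together made up 65.0% to 76.0% of the members' summed CPM in the libraries of the 2 day set and 58.7% to 78.9% in those of the 4 week set. Of these, Tjp1 and Slc7a5 are not restricted to vessels, and Cspg5 encodes neuroglycan C, which is made by neurons and glia. The proteoglycan known as the pericyte marker is a different gene, Cspg4.

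**Figure D3:**
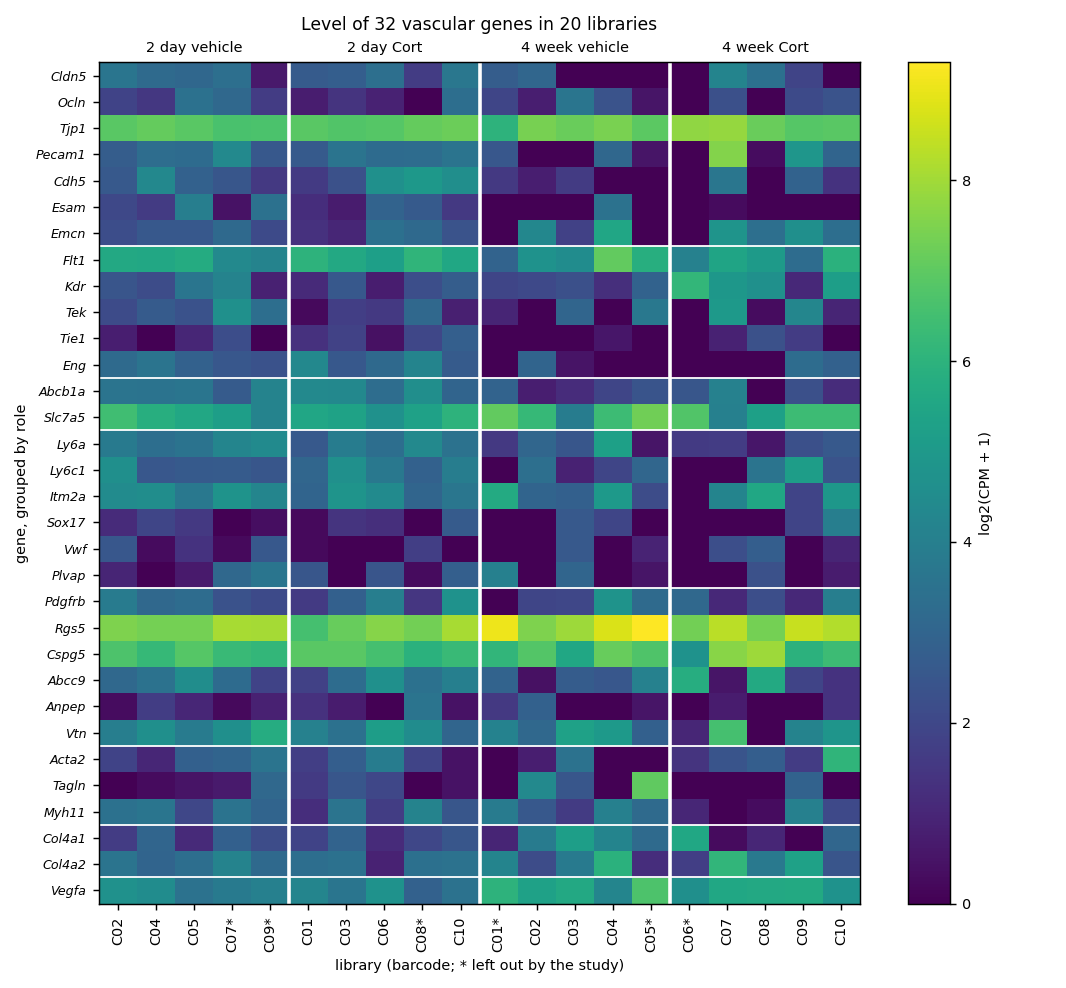
Level of the 32 vascular genes (rows, grouped by role) in the 20 libraries (columns, grouped by set and treatment), as log2(CPM + 1), with an asterisk on libraries left out by the study. Rows of Tjp1, Rgs5 and Cspg5 are bright throughout and those of Slc7a5 and Flt1 in most libraries, and most other rows at 4 weeks mix values at 0 with single bright libraries.

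Among the 7 junction and adhesion genes, all 7 were tested at 2 days and 5 at 4 weeks. Cldn5 had 11.2, 8.40, 7.62, 9.59 and 0.541 CPM in the 2 day vehicle libraries C02, C04, C05, C07 and C09, and 5.42, 5.86, 9.62, 2.14 and 11.9 CPM in the Cort libraries C01, C03, C06, C08 and C10. The values at 4 weeks were 5.77, 7.41, 0, 0 and 0 CPM in vehicle C01 to C05 and 0, 17.5, 9.91, 2.72 and 0 CPM in Cort C06 to C10. The groups overlapped at both times, with a log2 fold change of -0.15 ± 0.59 (SE) at 2 days (Padj = 0.98 by edgeR) and 1.57 ± 1.89 at 4 weeks (Padj = 0.99).

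Pecam1, an adhesion molecule of endothelial contacts, had 5.72, 9.01, 8.59, 19.6 and 4.87 CPM in 2 day vehicle and 5.26, 11.1, 8.42, 8.76 and 11.1 CPM in 2 day Cort, in the same order of libraries. In the 4 week set it had 4.81, 0, 0, 7.53 and 0.439 CPM in vehicle and 0, 191, 0.248, 28.3 and 7.03 CPM in Cort. A single Cort library, C07, held 79.8% of the summed CPM of the 4 week set, and the lowest Cort values lay within the vehicle range. The log2 fold change at 4 weeks was 4.51 ± 1.78 (unadjusted P = 0.022, Padj = 0.99 by edgeR), and without C07 it was 2.23 (unadjusted P = 0.23). In C07 Cldn5 (17.5 CPM), Cdh5 (11.7 CPM), Abcb1a (16.0 CPM) and Tek (30.7 CPM) were also at their highest of the 10 libraries. Eng, Ly6c1, Sox17 and Plvap were at 0 in C07 and Esam was at 0.216 CPM. Low values were usual for these genes at 4 weeks. Their median over the 10 libraries was 0 for Eng, Sox17 and Esam, 0.219 CPM for Plvap and 3.49 CPM for Ly6c1. The other junction genes had log2 fold changes between -1.25 (Esam) and 0.39 (Cdh5) at 2 days and between -0.95 (Ocln) and -0.09 (Tjp1) at 4 weeks, none with an unadjusted P below 0.05. Tjp1, which encodes the scaffold that ties junctions to actin, was closely bounded, at -0.04 with an interval of -0.43 to 0.34 at 2 days and -0.09 with an interval of -0.85 to 0.66 at 4 weeks.

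Of the 5 receptor genes, 4 were tested at each time, and Tie1 at neither. Kdr encodes the main signalling receptor for VEGF on endothelium. It had 4.53, 3.48, 11.3, 16.9 and 0.811 CPM in 2 day vehicle and 1.15, 4.89, 0.687, 3.70 and 5.74 CPM in 2 day Cort. The 4 week values were 2.89, 3.18, 3.78, 1.41 and 6.58 CPM in vehicle and 71.0, 29.6, 24.5, 1.09 and 36.1 CPM in Cort. The 3 kept vehicle libraries held 9, 9 and 3 counts. Thus 4 of the 5 Cort libraries lay above every vehicle library at 4 weeks, and C09 lay below all of them, while the groups overlapped at 2 days. The log2 fold change was -1.09 ± 0.89 at 2 days (Padj = 0.93) and 3.0 ± 1.29 at 4 weeks (unadjusted P = 0.033, Padj = 0.99), and with all 10 libraries 3.16 ± 1.05 at 4 weeks (unadjusted P = 0.0072, Padj = 0.97 by edgeR). In C06, where Kdr stood at its highest, Cldn5, Pecam1, Cdh5, Emcn, Tek, Tie1 and Eng were all at 0. Flt1 (16.0 CPM), Abcb1a (4.56 CPM) and Ly6a (1.96 CPM) were above 0 in that library.

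Flt1, the VEGF receptor that also acts as a decoy, had 48.4, 46.5, 52.1, 19.7 and 16.8 CPM in 2 day vehicle and 63.3, 47.9, 36.8, 67.2 and 45.9 CPM in 2 day Cort. After 4 weeks it had 6.73, 25.8, 22.2, 133 and 56.2 CPM in vehicle and 16.0, 41.7, 32.2, 8.71 and 61.1 CPM in Cort. The groups overlapped in both sets. Its log2 fold change was -0.02 ± 0.27 at 2 days (interval -0.59 to 0.56) and -0.75 ± 0.78 at 4 weeks.

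Tek, the angiopoietin receptor Tie2, had 3.34, 5.32, 4.10, 24.5 and 9.19 CPM in 2 day vehicle and 0.164, 2.28, 1.89, 7.79 and 0.766 CPM in 2 day Cort. Among the kept libraries every Cort value lay below every vehicle value, the only such member of the 27 tested (6.64% of all genes tested did not overlap), and over all 10 libraries the groups overlapped in C08. Tek reached the level of the filter on low counts in 3 kept vehicle libraries and 1 kept Cort library. It thus also passed mainly through the group where it was higher. The kept Cort libraries C01, C03, C06 and C10 held 1, 7, 11 and 2 counts of Tek. The log2 fold change was -1.74 ± 0.99 (unadjusted P = 0.093, Padj = 0.86) in the kept libraries and -1.82 ± 0.83 (unadjusted P = 0.038, Padj = 0.93 by edgeR) in all 10. At 4 weeks the values were 0.962, 0, 7.13, 0 and 12.3 CPM in vehicle and 0, 30.7, 0.248, 18.5 and 0.959 CPM in Cort, which overlapped, with a log2 fold change of 2.36 ± 1.89. The co-receptor Eng had log2 fold changes of 0.14 ± 0.62 and 0.54 ± 1.99.

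Over all 10 libraries, 0 of 27 members at 2 days and 0 of 18 at 4 weeks had groups that did not overlap, against 0.801% and 0.914% of all genes tested.

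**Figure D4:**
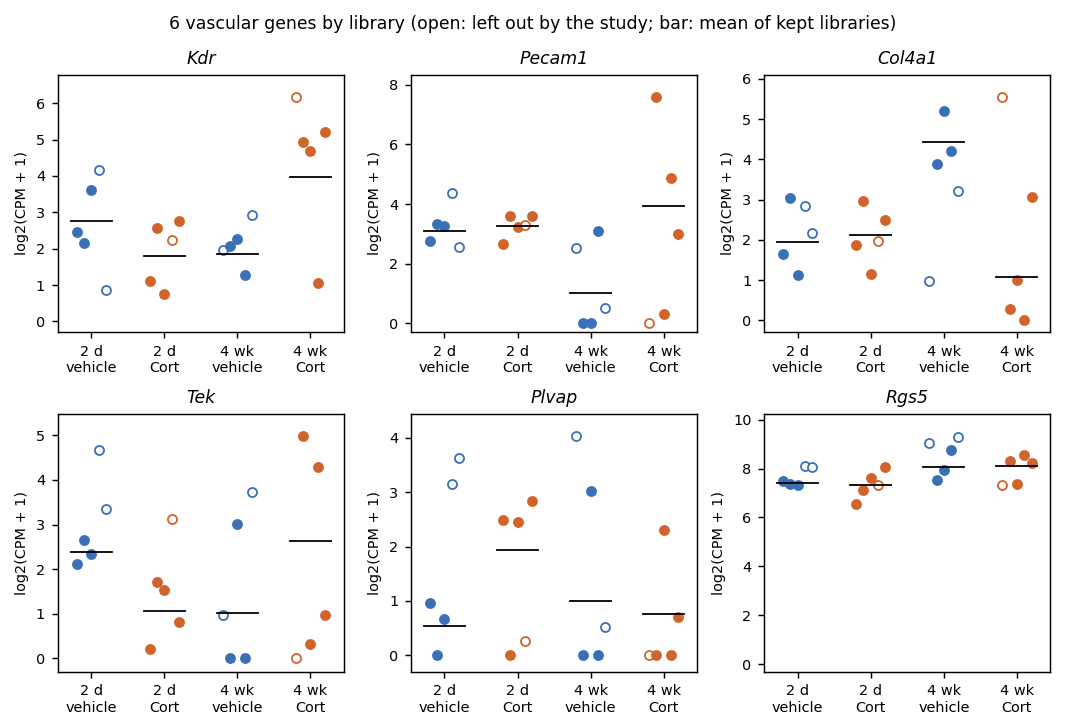
Level of Kdr, Pecam1, Col4a1, Tek, Plvap and Rgs5 in each library as log2(CPM + 1), with filled points for kept libraries, open points for those left out by the study and bars for the mean of the kept libraries. At 4 weeks 4 of 5 Cort libraries stand above the vehicle libraries for Kdr, a single Cort library carries most of Pecam1, and the highest Col4a1 value at 4 weeks is in a Cort library left out by the study.

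The transporters and other endothelial genes showed no called difference either. Slc7a5 had 86.8, 55.7, 46.9, 36.2 and 17.0 CPM in 2 day vehicle and 44.0, 40.1, 25.2, 38.9 and 63.6 CPM in 2 day Cort, which overlapped (log2 fold change -0.55 ± 0.32, unadjusted P = 0.096, Padj = 0.87 by edgeR). At 4 weeks it had 133, 75.2, 13.8, 82.9 and 156 CPM in vehicle and 110, 15.6, 37.9, 81.6 and 83.1 CPM in Cort, also overlapping (-0.08 ± 0.72). The drug efflux pump gene Abcb1a was tested at 2 days (0.33 ± 0.52) but was below the filter at 4 weeks.

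Plvap encodes the protein of the diaphragms of fenestrated capillaries and is low where the barrier is tight. It had 0.953, 0, 0.586, 7.86 and 11.4 CPM in 2 day vehicle and 4.60, 0, 4.47, 0.195 and 6.13 CPM in 2 day Cort. Its highest values were in the 2 vehicle libraries left out by the study, and the 3 kept vehicle libraries held 4, 0 and 3 counts. The log2 fold change was 2.85 ± 1.30 in the kept libraries (unadjusted P = 0.040, Padj = 0.82 by edgeR) and -0.43 with all 10 (unadjusted P = 0.69), so that its direction depended on those libraries. At 4 weeks it had 15.4, 0, 7.13, 0 and 0.439 CPM in vehicle and 0, 0, 3.96, 0 and 0.639 CPM in Cort, and it was below the filter on low counts. The summed level of 6 tanycyte genes, which mark cells that line the third ventricle beside these capillaries, was 74.4 to 142 CPM in kept vehicle and 104 to 157 CPM in kept Cort libraries at 2 days, and up to 237 CPM in the vehicle libraries left out. It was highest in the Cort library left out, C08 (256 CPM), where Plvap was at 0.195 CPM.

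Ly6c1 and Ly6a are surface proteins of brain endothelium from a family of near copies on chromosome 15. Ly6c1 had 23.8, 4.71, 5.27, 5.37 and 4.60 CPM in 2 day vehicle and 7.39, 24.4, 12.2, 6.43 and 14.6 CPM in 2 day Cort. In the 4 week set it had 0, 9.53, 0.839, 2.83 and 7.46 CPM in vehicle and 0, 0, 10.9, 34.8 and 4.16 CPM in Cort. The groups overlapped at both times (log2 fold changes 0.37 ± 0.61 and 1.46 ± 1.62). Both values are uncertain for a further reason, since 32.8% of the 50-base stretches of Ly6c1 also occur in Ly6c2, Ly6a or Ly6i, as do 19.0% of those of Ly6a and 22.5% of those of Abcb1a in related or overlapping genes, and reads were 50 bases long. The longest coding stretch that Ly6c1 (GRCm38 chr15:75045545-75048446, minus strand, across an intron) shares with Ly6c2 is shown because no read inside it can be given to 1 gene. The corresponding stretch of Abcb1a and Abcb1b is 338 bases long (chr5:8702387-8702944, plus strand, across an intron).

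Ly6c1 and Ly6c2, 188 bases: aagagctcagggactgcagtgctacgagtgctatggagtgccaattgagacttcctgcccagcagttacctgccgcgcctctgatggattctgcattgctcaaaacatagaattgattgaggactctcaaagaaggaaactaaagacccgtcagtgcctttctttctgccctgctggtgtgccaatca

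For the other endothelial genes, Ly6a had a log2 fold change of -0.20 ± 0.55 at 2 days and -2.51 ± 1.33 at 4 weeks (unadjusted P = 0.078), and the membrane protein gene Itm2a -0.19 ± 0.49 and 0.66 ± 1.06. The transcription factor gene Sox17 and the clotting factor gene Vwf were below the filter in both sets, with at most 5.36 and 4.87 CPM in a 2 day library and 14.7 and 5.95 CPM in a 4 week library.

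Of the 6 genes listed under pericytes, with Cspg5 among them although it is not restricted to these cells, 5 were tested at 2 days and 4 at 4 weeks. Rgs5 had 179, 164, 161, 270 and 267 CPM in 2 day vehicle and 93.8, 139, 194, 159 and 269 CPM in 2 day Cort. The 4 week values were 531, 182, 242, 433 and 631 CPM in vehicle and 159.7, 320.4, 164, 371 and 297 CPM in Cort. The groups overlapped at both times, with log2 fold changes of 0.04 ± 0.25 (interval -0.47 to 0.56) and 0.00 ± 0.34 (interval -0.73 to 0.73). With all 10 libraries they were -0.29 and -0.64 (unadjusted P of 0.23 and 0.083 by edgeR's quasi-likelihood test), and the 2 vehicle libraries left out were the highest of their group in each set.

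Pdgfrb, a platelet-derived growth factor receptor listed here under pericytes, had 13.6, 7.78, 8.79, 4.03 and 3.24 CPM in 2 day vehicle and 1.97, 6.19, 14.8, 1.75 and 25.7 CPM in 2 day Cort. After 4 weeks it had 0, 2.82, 2.94, 26.4 and 8.34 CPM in vehicle and 7.82, 1.08, 3.72, 1.09 and 14.7 CPM in Cort. The groups overlapped (0.26 ± 0.67 at 2 days, not tested at 4 weeks). The potassium channel subunit gene Abcc9, the matrix gene Vtn and Cspg5 had log2 fold changes of -0.10 ± 0.62, 0.00 ± 0.51 and 0.09 ± 0.22 at 2 days and of 1.93 ± 1.65, 0.39 ± 1.20 and 0.56 ± 0.52 at 4 weeks, and the peptidase gene Anpep was below the filter in both.

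The 3 smooth muscle genes were low. Acta2, smooth muscle actin, had 2.62, 1.02, 6.25, 6.90 and 10.8 CPM in 2 day vehicle and 2.30, 5.86, 13.9, 2.73 and 0.383 CPM in 2 day Cort. At 4 weeks it had 0, 0.706, 10.5, 0 and 0 CPM in vehicle and 1.63, 4.32, 5.95, 2.18 and 67.1 CPM in Cort, where library C10 held 72.7% of the sum of the 10. The groups overlapped (log2 fold changes 0.78 ± 0.97 and 2.40 ± 1.61). Myh11, the myosin heavy chain of smooth muscle, had log2 fold changes of -0.78 ± 0.80 and -0.68 ± 1.67. Tagln was tested only at 4 weeks (-2.41 ± 2.02), where vehicle library C05, one of those left out, had 129 CPM, and 67.9% of its exon bases overlap genes on the opposite strand, among them Pcsk7, which counting without strand would not tell apart.

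Of the members tested at 4 weeks, Col4a1, which encodes a chain of type IV collagen, was the 1 whose kept vehicle and Cort libraries did not overlap. It had 2.15, 7.17, 1.17, 6.14 and 3.51 CPM in 2 day vehicle and 2.63, 6.84, 1.20, 2.92 and 4.59 CPM in 2 day Cort, which overlapped (0.09 ± 0.93). The values at 4 weeks were 0.962, 13.8, 36.1, 17.4 and 8.34 CPM in vehicle and 46.0, 0.216, 0.991, 0 and 7.35 CPM in Cort. In the kept libraries every Cort value lay below every vehicle value, in 1 of the 23 members tested (6.48% of all genes tested did not overlap), with a log2 fold change of -3.36 ± 1.44 (unadjusted P = 0.033, Padj = 0.99 by edgeR). With all 10 it was -0.47 (unadjusted P = 0.73). The highest value of the set was in Cort library C06 and the lowest vehicle value in C01, both left out by the study.

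Col4a2 encodes the partner chain of the same collagen and is read in the opposite direction from the same promoter. Its groups overlapped at both times, with a log2 fold change of -0.25 ± 0.71 at 2 days and 0.26 ± 1.04 at 4 weeks. In the 4 week Cort libraries C06 to C10 it had 2.28, 69.6, 12.6, 38.6 and 4.48 CPM, so that C06 was high for Col4a1 and low for Col4a2, and C07 the reverse. The annotated first exons of the pair overlap by 22 bases at GRCm38 chr8:11312805-11312826, printed from the RefSeq promoter window of Col4a2 to show how closely the pair is joined.

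Col4a1 and Col4a2 first exon overlap, plus strand: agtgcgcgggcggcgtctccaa

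Vegfa, the ligand of Flt1 and Kdr, had 24.8, 21.9, 10.4, 13.0 and 15.7 CPM in 2 day vehicle and 17.7, 11.4, 25.8, 6.43 and 10.3 CPM in 2 day Cort. In the 4 week set it had 64.4, 39.5, 47.8, 17.9 and 104.0 CPM in vehicle and 24.1, 45.2, 47.8, 49.0 and 25.6 CPM in Cort. Vehicle and Cort overlapped in both sets (log2 fold changes -0.21 ± 0.46 and 0.24 ± 0.67).

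The difference of the Cort effect between 4 weeks and 2 days was tested as an interaction in the 14 kept libraries. None of the 30 members tested passed Padj 0.1 (0.0157% of all 12777 genes did), and 4 had an unadjusted P below 0.05, against 6.49% of all genes. These were Kdr (log2 difference 4.08 ± 1.53, unadjusted P = 0.014, Padj = 0.71), Pecam1 (4.33 ± 1.87, Padj = 0.75), Tagln (-5.82 ± 2.68, Padj = 0.76) and Vwf (5.36 ± 2.57, Padj = 0.77). In the kept 2 day libraries Vwf had at most 1 count in Cort and Tagln at most 2 in vehicle, so their sizes are poorly measured. The differences between the sets given in the next paragraph also lie within this contrast. With all 20 libraries 0 of 31 members passed, against 0.0% of all genes, and Kdr had 4.38 ± 1.32 (unadjusted P = 0.0025, Padj = 0.53 by edgeR).

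Between the vehicle groups, 4 week against 2 day, 0 of 30 members passed Padj 0.1 in the kept libraries (1.33% of all genes), and 4 (Tagln, Rgs5, Cdh5 and Emcn) had an unadjusted P below 0.05, against 12.1% of all genes. With all 20 libraries 2 of 31 members passed, against 6.17% of all genes. Vegfa was higher at 4 weeks by 1.67 ± 0.55 on the log2 scale (Padj = 0.090) and Rgs5 by 0.96 ± 0.32 (Padj = 0.097 by edgeR), and in the kept libraries Vegfa had 0.91 ± 0.62 (Padj = 0.59) and Rgs5 0.79 ± 0.36 (Padj = 0.38). With all 20 libraries 4 members had an unadjusted P below 0.05, against 17.1% of all genes. The sets differ in section thickness, slides, laser system, sequencer and the fast with refeeding, which cannot be told apart from the length of treatment.

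Levels of different vascular genes were scarcely correlated from library to library. After the group means were taken from log2(CPM + 1), the median Pearson correlation between pairs of members over the 10 libraries was 0.04 at 2 days (27 genes, 351 pairs) and 0.01 at 4 weeks (18 genes, 153 pairs), beside 0.00 and 0.01 over pairs of all genes tested. The 7 junction genes had 0.24 at 2 days. For comparison, the 5 red blood cell genes had a median of 0.90 at 2 days and 0.49 at 4 weeks, and 5 tanycyte genes 0.63 and -0.06. Oligodendrocyte genes had 0.17 and 0.52. Medians were lower for microglial (0.13 and 0.09), astrocyte (0.08 and 0.05), neuronal (-0.06 and 0.15) and fibroblast genes (0.14 and -0.07). Low correlation was thus not particular to the vascular genes. The pairs share libraries and depth, and these values are descriptions. The median SD within groups of log2(CPM + 1) was 0.83 over the members and 0.53 over all genes tested at 2 days, and 1.41 and 1.12 at 4 weeks, while the median level of the members (9.25 and 20.9 CPM) was below that of all genes tested (29.6 and 40.5 CPM). A single library held over 30% of a gene's summed CPM in 4 of 27 members at 2 days, against 6.7% of all genes tested, and in 11 of 18 at 4 weeks, against 27.9%.

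The wider vascular pathways, in 6 lists of 89 other genes, held no gene with Padj below 0.1 in either Cort comparison. An unadjusted P below 0.05, used for the counts that follow, was reached by 5.97% of all genes tested at 2 days and 4.91% at 4 weeks. Of the 24 genes of the VEGF, angiopoietin and Notch pathway, 16 were tested at 2 days, where 1 was higher (Notch4, 4.13 ± 1.08, unadjusted P = 0.0011, Padj = 0.44 by edgeR) and 2 were lower (Ptprb, -0.74 ± 0.32, and Apln, -1.40 ± 0.61) with an unadjusted P below 0.05. At 4 weeks 14 were tested, with 1 higher (Efnb2, 1.04 ± 0.49) and 1 lower (Ptprb, -2.09 ± 0.86, Padj = 0.99 by edgeR). Ptprb encodes the phosphatase that restrains Tek.

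Of 20 genes of barrier transport and caveolae, 19 were tested at 2 days, with 2 higher (Lrp8, 0.56 ± 0.21, and Abcg2, 1.15 ± 0.46) and 1 lower (Slco2b1, -1.29 ± 0.52) at an unadjusted P below 0.05, and 17 at 4 weeks, with 1 lower (Cav1, the caveolin gene, -3.39 ± 1.25). Of 12 endothelial transcription factors, 6 and 4 were tested, with Ets1 higher at 2 days (1.89 ± 0.78), and Foxq1 higher (6.87 ± 2.68) and Lef1 lower (-4.04 ± 1.58) at 4 weeks. Which group carried the genes of these wider lists past the filter on low counts was not examined. Large fold changes such as those of Foxq1 and Notch4 are given with that limit. Of 11 other basement membrane genes, 8 and 7 were tested, with Sparc higher at 2 days (0.29 ± 0.09) and Lamc1 lower at 4 weeks (-2.39 ± 0.67, unadjusted P = 0.0026, Padj = 0.89 by edgeR). None of the 8 and 3 further pericyte genes or the 4 and 3 further smooth muscle genes tested at 2 days and 4 weeks had an unadjusted P below 0.05.

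Markers of other cells that travel with vessels were also read. The summed level of 8 fibroblast genes was 113 to 139 CPM in kept vehicle and 96.9 to 186 CPM in kept Cort at 2 days, and 152 to 183 CPM and 124 to 204 CPM at 4 weeks. The 5 red blood cell genes had 24.0 to 57.9 CPM and 44.8 to 109 CPM at 2 days, with 258 and 263 CPM at most in vehicle and Cort libraries left out, and 73.7 to 114 CPM and 24.3 to 118 CPM at 4 weeks. The 4 perivascular macrophage genes had 0 to 3.48 CPM in kept vehicle and 4.23 to 13.1 CPM in kept Cort libraries at 2 days, and 0 to 1.41 CPM and 2.88 to 46.8 CPM at 4 weeks, when Lyve1 and Pf4 were at 0 in all 10 libraries. The kept vehicle sums at 4 weeks lay near the floor, as a count of 3 was worth 0.648 to 2.89 CPM there. Over all 10 libraries the macrophage sums overlapped in both sets, with up to 10.8 CPM in vehicle at 2 days and 0 CPM in Cort library C06 at 4 weeks. Of these 4 genes 1 was tested at 2 days (Mrc1, 1.78 ± 1.12, unadjusted P = 0.13, Padj = 0.89 by edgeR) and 0 at 4 weeks. The 7 microglial genes summed to 235 to 298 CPM and 291 to 384 CPM at 2 days and to 224 to 320.2 CPM and 162 to 329.5 CPM at 4 weeks, and the 5 oligodendrocyte genes to 171 to 216 CPM and 134 to 278 CPM and to 233 to 444 CPM and 91.4 to 409 CPM.

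The kept groups at 4 weeks also did not overlap in the sums of 3 other lists. Among single genes tested at 4 weeks 6.48% did not overlap, and no such share was computed for sums of lists. The 7 astrocyte genes summed to 2877 to 2954 CPM in vehicle and 3206 to 4403 CPM in Cort, the 6 neuronal genes to 2779 to 2985 CPM and 3168 to 3581 CPM, and the 6 tanycyte genes to 533 to 1028 CPM and 210.04 to 420.44 CPM. At 2 days the astrocyte sums were 4306 to 4755 CPM and 3721 to 5489.6 CPM and the neuronal sums 3329 to 3788 CPM and 3013 to 3638 CPM, which overlapped. By gene, 3 of 6 neuronal genes were lower at 2 days with an unadjusted P below 0.05 by edgeR, against 5.97% of all genes. At 4 weeks 0 of 6 had such a P, against 4.91% of all genes. Of 7 astrocyte genes, 0 had one at 2 days and 2 were higher at 4 weeks. Of 5 tanycyte genes tested, 1 was higher at 2 days and 1 lower at 4 weeks. None of these genes had Padj below 0.1. Over all 10 libraries of the 4 week set all 3 sums overlapped, with up to 4250 CPM (astrocytes) and 3715 CPM (neurons) in vehicle, and with a lowest vehicle tanycyte sum of 492 CPM and a highest Cort sum of 504 CPM. The sums in the kept libraries stand beside the values of Pecam1, Kdr and Col4a1 given above, and their part in them was not tested.

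Promoter windows of 300 bases were at hand from RefSeq (GRCm38.p6) for 20 of the 32 members, as 23 windows. The full glucocorticoid response element, the half-site AGAACA and its inverted copy 3 bases apart, searched on both strands, was in 0 of the 23 windows and in 3 of 32851 windows of all genes. Its core ACANNNTGT was in 1 (Abcb1a), or 4.35%, against 6.85% of all windows, and the ETS core AGGAAG in 7, or 30.4%, against 35.4%. These are matches of letters in a short window and no account of binding. The Abcb1a window (chr5:8566841-8567140) lies outside the GENCODE gene model used here, which starts at 8660077.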

How the data were processed

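ARC tissue was laser captured from cresyl violet stained sections, RNA was amplified with the Ovation RNA-seq System V2, and single-end reads of 50 bases were aligned by Rsubread to GRCm38 and counted by featureCounts. CASAVA 1.7 is named in the submitters' processing notes. Annotation release, strand and multi-mapping settings are not given in the sources used here. The authors deposited raw counts of 22048 genes for 10 libraries per set, and all values here start from these counts. The normalized signal values deposited by the authors are counts divided by DESeq2 size factors over the 7 kept samples. Their mean column served for symbols and as a check: recomputed means were within 1% for all 22048 genes in both sets. Their 7 per-sample columns per set and their comparison columns (log2 fold changes, standard errors, statistics and P values) were not used. Columns were assigned to groups by barcode from the study's sample table, and carry no replicate numbers of the labels.

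Tests were run in edgeR 4.0.16 under R 4.3.3, with DESeq2 1.42.0 and limma 3.58.1 for the alternatives, and summaries in pandas 2.3.3 under Python 3.11.15. Genes were filtered with filterByExpr, scaled by TMM and tested 2-sided by edgeR's quasi-likelihood test, with Benjamini-Hochberg adjustment over all genes tested and the study's threshold of Padj 0.1. Errors of fold changes are SE. CPM values are on 1 TMM scale over the 20 libraries. Log2(CPM + 1) served for figures, spreads and correlations. Gene models were from GENCODE M21, and promoter windows from RefSeq. On simulated data, the 2 day comparison recovered 36%, 82% and 95% of genes changed by 1, 2 and 4 on the log2 scale (12243 genes), and the 4 week comparison 8%, 24% and 64% (11369 genes). The changed genes were drawn only from those averaging more than 20 counts per library, so these rates do not cover members with lower counts. No 2 libraries of the same group were alike within counting noise.

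The 32 members and all lists were chosen with earlier results of these data known. Values in every library are given for 13 members: those with an unadjusted P below 0.05 in a Cort comparison, those with Padj below 0.1 in any comparison, and fixed representatives of each role (Cldn5, Pecam1, Flt1, Kdr, Tek, Slc7a5, Ly6c1, Plvap, Pdgfrb, Rgs5, Acta2, Col4a1 and Vegfa). Of each wider list at most the 3 genes with the lowest P are named. Col4a2, Tagln and others given single values were named after their values were seen. Alternatives were all 10 libraries, DESeq2, upper quartile scaling, no filter, at least 10 counts in every library, limma voom with quality weights and leaving out each kept library.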

Additional observations from a re-analysis of the deposited data

Results flagged for a closer look

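For each of the 13 members with every value given, the highest and the lowest library of each group of 5 were compared with the nearest other library on the log2(CPM + 1) scale. A gap above 0.71 of the group's range, Dixon's 95% critical value for 5 samples, was found in 3 of 52 groups, and chance gives about 1 in 20 groups. Cldn5 was low in 2 day vehicle library C09 (0.541 CPM, the nearest at 7.62 CPM), a library the study left out. Ly6c1 was high in 2 day vehicle library C02 (23.8 CPM, the nearest at 5.37 CPM). Acta2 was high in 4 week vehicle library C03 (10.5 CPM, the nearest at 0.706 CPM).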

How the results depend on the processing

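No member passed Padj 0.1 in a Cort comparison or the interaction under any alternative run, nor in the comparison of the vehicle groups except with all 20 libraries, where 2 did (Vegfa and Rgs5). A count of 3 was worth up to 2.89 CPM at 4 weeks. The simulation of that comparison changed only genes averaging more than 20 counts per library, and recovered 8% of those changed by 1 on the log2 scale. Counts of 0 members below Padj 0.1 therefore do not show equal levels. The number of members with an unadjusted P below 0.05 at 2 days moved from 1 to 3 with DESeq2 (Vwf, Tagln and Plvap), to 3 with no filter on low counts and to 0 with at least 10 counts in every library, which left 17 members. At 4 weeks it moved from 3 to 0 with that filter, which left 7 members, and to 1 (Col4a1) with voom over all 10 libraries. Leaving out 1 kept library gave 0 to 1 at 2 days, 1 to 2 at 4 weeks, 1 to 5 for the interaction and 1 to 6 between the vehicle groups (lowest at 2 days without vehicle C04, Cort C01 or Cort C06, at 4 weeks without vehicle C04, Cort C07 or Cort C08, for the interaction without 2 day vehicle C05 and between the vehicle groups without 2 day C02, C04 or C05), and a median log2 fold change of the members of -0.18 to 0.02 at 2 days and -0.15 to 0.70 at 4 weeks. The cause of these moves was not tested beyond the number of members left.

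Signs turned mostly where the fold change was near 0. At 2 days all 10 libraries gave -0.11 (Pecam1), 0.51 (Flt1), -0.43 (Plvap), -0.29 (Rgs5), -0.12 (Acta2) and -0.18 (Col4a1) on the log2 scale, and voom gave 0.30 (Flt1), -0.46 (Pdgfrb), -0.23 (Rgs5) and -0.02 (Col4a1). At 4 weeks all 10 libraries gave -0.64 (Rgs5) and -0.54 (Vegfa), voom gave 0.20 (Slc7a5), -0.15 (Rgs5) and -0.09 (Vegfa), and Rgs5 had 0.00 with DESeq2, -0.03 with upper quartile scaling and -0.01 with at least 10 counts in every library. Leaving out 1 library at 2 days gave -0.21 to 1.64 (Acta2), -0.38 to 0.02 (Cldn5), -0.35 to 1.18 (Col4a1), -0.17 to 0.10 (Flt1), -0.39 to 0.63 (Pdgfrb), -0.24 to 0.25 (Rgs5) and -0.52 to 0.02 (Vegfa). At 4 weeks it gave -1.14 to 0.58 (Flt1), -0.22 to 0.43 (Rgs5), -0.54 to 0.28 (Slc7a5) and -0.07 to 0.54 (Vegfa). At 4 weeks Pecam1, Kdr and Col4a1 kept their direction under every alternative in which they were tested. An unadjusted P below 0.05 was lost for Pecam1 without vehicle C02 or C03 or Cort C07 (log2 fold change 2.23 without C07), for Kdr without vehicle C02, C03 or C04, for Col4a1 without vehicle C03 or C04 or Cort C08 or C09, and for Plvap at 2 days without vehicle C02, C04 or C05. It was also lost for Pecam1 with DESeq2, for Col4a1 with all 10 libraries, and for Pecam1, Kdr and Plvap with voom. It was gained at 2 days for Ly6c1 without vehicle C02 (1.53) and Slc7a5 without Cort C10 (-0.80), and at 4 weeks for Cldn5 without vehicle C02 (7.52), Tek without vehicle C03 (8.28) and Acta2 without vehicle C03 (5.59), while Pecam1 had 10.47 without vehicle C04. In these 4 cases at 4 weeks the vehicle libraries left held at most 2 counts, so the fitted values are no measure of size. Kdr fell below the filter on low counts without Cort C07, C08 or C10, as did Plvap without Cort C01, C06 or C10.

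No paired analysis was possible because the columns carry barcodes and not the replicate numbers of the labels, and no source ties such a number to a litter, batch or day.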
